A study of Mus musculus with 6 samples.

Results

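The glucocorticoid receptor, the proteins that set its access to hormone and to the nucleus, and a group of its direct target genes were followed in tail-suspended and sham mouse hearts. The set held 10 genes, chosen by name: the receptors Nr3c1 and Nr3c2, the prereceptor enzyme Hsd11b1, the receptor co-chaperones Fkbp5 and Fkbp4, and the targets Tsc22d3, Zbtb16, Sgk1, Dusp1 and Errfi1. The arrays carried 11 probes for these genes among 55681 probes that were not controls, and 2 of the 11 read Nr3c1. All 11 were well above background on all 6 arrays, so all 10 genes were among the 14813 named genes that were tested.

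Hearts came from C57BL/6 male mice that carried no engineered allele in the labels. The sham group held 3 mice kept in the same room and fed alike, and the tail-suspension group held 3 mice hung by the tail for 28 days, a model of microgravity in which the hindlimbs bear no weight. The labels give an age of 10 weeks when suspension began and of 11 weeks for the animals, and the methods name a younger age, so the age at sampling is not settled. The labels name no drug for either group. Total RNA of cardiac muscle was labelled with Cy3 and hybridised, 1 mouse per array, to 6 one-colour Agilent arrays.

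Glucocorticoids cross the cell membrane and bind the glucocorticoid receptor, which waits in the cytoplasm in a complex with the chaperone Hsp90 and an FK506-binding co-chaperone. The co-chaperone encoded by Fkbp5 lowers the receptor's affinity for hormone, and the one encoded by Fkbp4 favours its transport to the nucleus. In the nucleus the receptor binds an imperfect palindrome in DNA and switches genes on, Fkbp5 itself among them, which closes a negative feedback loop. Cardiomyocytes carry the glucocorticoid receptor and also the mineralocorticoid receptor of Nr3c2, which binds the same hormones, and the enzyme of Hsd11b1 regenerates active hormone inside the cell.

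The probes behind the results are 60 bases long, and the first 30 bases of those for the members that passed the test, other than Nr3c1, are shown so that the reader can see which stretch of each transcript was read.
Fkbp5: gggaggccctgtctcaAAACAAAACAAAaa
Zbtb16: tatttcttccgttctacaggaccttgctct
Tsc22d3: ctgctgtacgactccaggatttggatttgg
Fkbp4: tcccccgttacacacaagtgtatatccttt
On mm9, the build of the array's design, the Fkbp5 probe lies at chr17:28536060-28536119 on the minus strand, the Zbtb16 probe at chr9:48462419-48462478 on the minus strand, the Tsc22d3 probe at chrX:137074094-137074153 on the minus strand and the Fkbp4 probe at chr6:128380528-128380587 on the minus strand. Which part of an exon a probe covers is not stated in the files. The capitals in the Fkbp5 probe mark its most widely shared run of 12 bases, which 30 other probes of the array also hold, against 2 to 11 other probes for the most shared run of each other member probe. Of these 30 probes 11 were tested, with 2 higher and 1 lower and a median log2 fold change of 0.09, between -0.50 and 1.47.

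Measured against the spread between arrays, 5 of the 10 members differed between the groups. Fkbp5, Zbtb16 and Tsc22d3 were higher in tail-suspended hearts, and Nr3c1 and Fkbp4 were lower, at an adjusted p under 0.05 by limma with Benjamini-Hochberg adjustment over 28032 tested probes. Over all tested genes 21.4% passed in either direction, 10.3% as higher and 11.1% as lower, and over all tested probes 10.6% and 9.6%. The 3 suspended arrays lay entirely to one side of the sham arrays for 7 members, 5 above and 2 below, while 47.1% of all tested genes had groups that did not overlap, 21.6% above and 25.5% below. The median log2 fold change of the members was 0.55, against -0.02 over all tested genes. RNA of heart tissue with all its cell types was measured, so fewer cells of a type and less RNA per cell cannot be told apart.

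**Figure D1:**
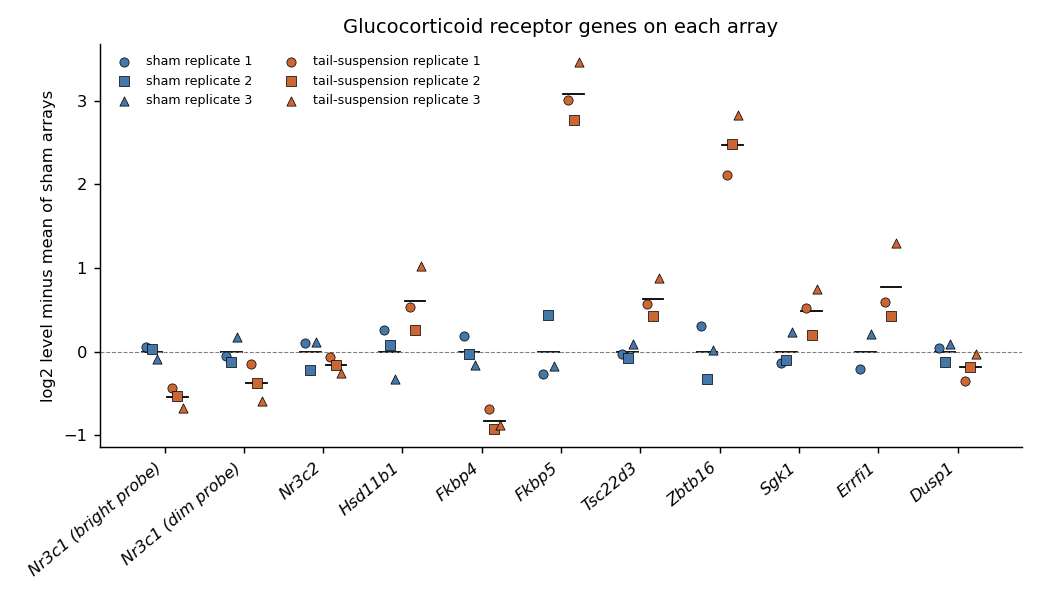
Log2 level of each member probe on each array minus the mean of the sham arrays for that probe (y axis), for 3 sham arrays (blue) and 3 tail-suspension arrays (orange), with black bars at group means and the replicate number given by the marker shape. Fkbp5 and Zbtb16 stood clear of the sham arrays on all 3 suspended arrays, and Nr3c1 and Fkbp4 lay below them. Sham replicate 2 is missing for Errfi1, where the spot carried an outlier flag.

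Transcript of the glucocorticoid receptor gene was lower at 1 of its 2 probes. Nr3c1 was read by a bright probe at chr18:39571641-39571700 and a dim one at chr18:39574183-39574242, both on the minus strand of mm9. The bright probe had a processed intensity, which is the brightness of a spot after background correction, of 7889, 7754 and 6768 in the sham hearts and 5952, 6224 and 5591 in the suspended ones. Every suspended heart lay below every sham heart. After scaling to the array's 75th percentile, its log2 level averaged 4.58 ± 0.07 (SD, n = 3) over the sham hearts and 4.03 ± 0.12 (SD, n = 3) over the suspended hearts, which gives a log2 fold change of -0.55 (standard error, SE, 0.10, 95% interval -0.78 to -0.31, limma adjusted p = 0.0151), or 1.46-fold lower. It ranked 1279 among the falls of the 14813 genes.

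The other Nr3c1 probe, which matches the transcript nearer its 5′ end, was much dimmer and read 191.2, 181.2 and 210.2 in sham and 188.6, 180.3 and 154 in tail-suspension. Its scaled levels did not overlap between the groups either, and its log2 fold change was -0.37 (SE 0.14, 95% interval -0.71 to -0.03), with an limma adjusted p = 0.105. The fall of the brighter probe did not pass without sham replicate 1 (limma adjusted p = 0.0547), without sham replicate 2 (0.0647) or without tail-suspension replicate 3 (0.0538), nor without the filter on dim probes (0.0563). On the slide, 1 row held all 3 sham arrays together with tail-suspension replicate 1, and with the row as a block the value was -0.44 (limma adjusted p = 0.164). That fit compares tail-suspension replicate 1 alone with the sham arrays, and the lone array is assumed to vary like the others, here and for each gene below.

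The mineralocorticoid receptor gene Nr3c2 gave a dim probe, at chr8:79766370-79766429 on the plus strand of mm9. It read 67.84, 53.6 and 64.11 in sham and 63.89, 65.98 and 61.47 in tail-suspension, and the groups overlapped. The log2 fold change was -0.16 with a 95% interval from -0.46 to 0.13 (limma adjusted p = 0.374), so a change of either sign within that interval was not resolved.

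Hsd11b1, which encodes the enzyme that turns inactive 11-keto steroids into active glucocorticoid, was read by 1 probe printed in 10 spots, at chr1:195048169-195048228 on the minus strand. Its intensity was 2800, 2464 and 1760 in sham and 3589, 3314 and 5603 in tail-suspension. All 3 suspended hearts lay above the sham hearts, with tail-suspension replicate 3 well above the other two. The spots of 1 array differed by an SD of only 0.019 to 0.062 on the log2 scale, against 0.30 between sham arrays and 0.39 between suspended arrays. The log2 fold change was 0.61 (SE 0.23, 95% interval 0.05 to 1.16) and did not pass after adjustment (limma adjusted p = 0.107). Without tail-suspension replicate 3 it was 0.40.

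The co-chaperones moved in opposite directions. Fkbp5, the inhibitory partner of the receptor, read 445.7, 718.6 and 447.3 in sham hearts and 4571, 4304 and 6896 in tail-suspended hearts. The lowest suspended heart lay far above the highest sham heart. The log2 level averaged 0.75 ± 0.38 (SD, n = 3) over the sham hearts and 3.83 ± 0.35 (SD, n = 3) over the suspended hearts, which gives a log2 fold change of 3.08 (SE 0.24, 95% interval 2.51 to 3.66, limma adjusted p = 0.00213), or 8.47-fold higher. It was the 35th largest rise among 14813 genes, and it passed under all 20 alternative settings, with values between 2.69 and 3.30. The slide row as a block, which leaves 1 suspended array against the sham arrays, gave 3.01 (limma adjusted p = 0.0312). Fkbp5 is also among the genes that the study drew in a heat map of these arrays, so its rise is not independent evidence.

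Fkbp4, the partner that links the receptor to the motor protein dynein, read 4049, 3464 and 2975 in sham hearts and 2339, 2191 and 2257 in tail-suspended hearts. The suspended hearts were closely alike and all lay below the sham hearts. The log2 level averaged 3.48 ± 0.18 (SD, n = 3) over the sham hearts and 2.65 ± 0.13 (SD, n = 3) over the suspended hearts, which gives a log2 fold change of -0.83 (SE 0.13, 95% interval -1.13 to -0.53, limma adjusted p = 0.00899), or 1.78-fold lower. It passed under 19 of 20 alternative settings and not with the slide row fitted as a block (-0.68), which leaves 1 suspended array. The 2-fold minimum is not among these 20, and the fall of Fkbp4 was short of it.

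The difference between the log2 values of the 2 co-chaperone probes on the same array needs no scaling between arrays, although its absolute size has no meaning because the probes differ. It was -3.18, -2.27 and -2.73 in sham and 0.97, 0.97 and 1.61 in tail-suspension. The shift of 3.91 was larger than the spread within either group, an SD of 0.46 among the 3 sham hearts and 0.37 among the 3 suspended hearts. An exact permutation test of the 3 arrays against 3 gave a two-sided p = 0.1, the smallest that this design allows.

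**Figure D2:**
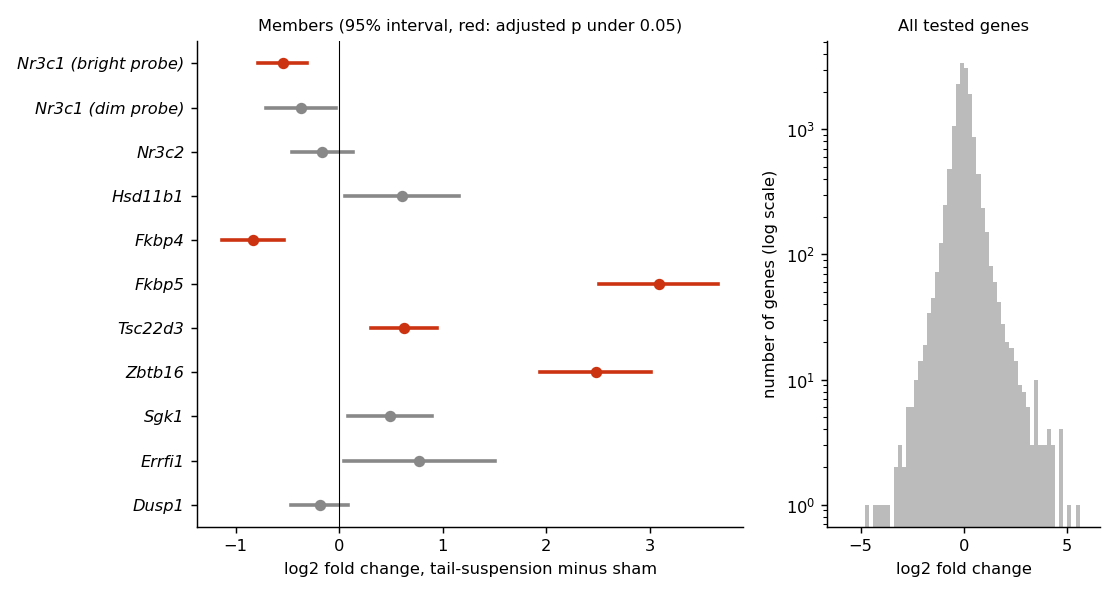
Left, log2 fold change of each member probe, tail-suspension minus sham (x axis), with its 95% interval from limma, red where the adjusted p was under 0.05 and grey otherwise. Right, histogram of the log2 fold changes of the 14813 tested genes, with the number of genes on a log scale. Fkbp5 at 3.08 and Zbtb16 at 2.47 lay in the far right tail, while the other members lay between -0.83 and 0.77.

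Among the 5 target genes Zbtb16 and Tsc22d3 rose. Zbtb16 encodes the zinc finger repressor PLZF, and it read 1830, 1177 and 1414 in sham and 6771, 9788 and 12290 in tail-suspension, with no overlap. The log2 level averaged 2.22 ± 0.32 (SD, n = 3) over the sham hearts and 4.69 ± 0.36 (SD, n = 3) over the suspended hearts, which gives a log2 fold change of 2.47 (SE 0.23, 95% interval 1.94 to 3.01, limma adjusted p = 0.00251), or 5.56-fold higher. It ranked 63 among the rises and passed under all 20 alternative settings. The slide row as a block, which again leaves 1 suspended array, gave 2.11 (limma adjusted p = 0.0337).

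Tsc22d3 encodes GILZ, a leucine zipper protein through which glucocorticoids dampen inflammation. Its bright probe read 7241, 6979 and 7415 in sham and 11550, 11660 and 15910 in tail-suspension, and the groups did not overlap. The log2 fold change was 0.63 (SE 0.13, 95% interval 0.31 to 0.95, limma adjusted p = 0.0247), or 1.54-fold higher. It did not pass without sham replicate 1 (limma adjusted p = 0.0767), sham replicate 2 (0.0914), tail-suspension replicate 1 (0.0576) or tail-suspension replicate 3 (0.0577), nor with the slide row fitted as a block (0.203). It also did not pass by the methods' t-test (adjusted p = 0.0721) or without the filter on dim probes (limma adjusted p = 0.0798), and the values ran from 0.50 to 0.72 over all settings.

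Errfi1, which encodes an inhibitor of the epidermal growth factor receptor, was read at chr4:150242886-150242945 on the plus strand. It gave 2213 and 2794 on sham replicates 1 and 3 and 4088, 4033 and 7410 in tail-suspension. The spot of sham replicate 2 carried an outlier flag and was dropped from the fit, which then rested on 5 arrays. On those arrays the groups did not overlap, and the log2 fold change was 0.77 (SE 0.29, 95% interval 0.04 to 1.50, limma adjusted p = 0.116). With the outlier spot kept the log2 fold change was 1.00 (limma adjusted p = 0.0595). It passed with normexp background correction (0.80, limma adjusted p = 0.0371), and it was 0.51 without tail-suspension replicate 3.

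Sgk1, which encodes a kinase that regulates ion channels and cell survival, was read at chr10:21719507-21719566 on the plus strand and gave 2948, 3013 and 3568 in sham and 4927, 4369 and 6372 in tail-suspension. After scaling, tail-suspension replicate 2 at 3.54 lay just below sham replicate 3 at 3.57 on the log2 scale, so the groups overlapped. The log2 fold change was 0.49 (SE 0.17, 95% interval 0.09 to 0.90, limma adjusted p = 0.0844). Without tail-suspension replicate 2 it was 0.64 and passed (limma adjusted p = 0.0395), as it did with normexp background correction (0.0357) and with array weights (0.0237).

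Dusp1, which encodes a phosphatase that switches off MAP kinases, was the only one of the 5 targets with a log2 fold change below 0. It gave 2405, 2130 and 2338 in sham and 1943, 2417 and 2685 in tail-suspension, and the groups overlapped after scaling. The log2 fold change was -0.19, and its 95% interval from -0.47 to 0.09 (limma adjusted p = 0.277) lay below those of Tsc22d3 and Zbtb16. The difference between the genes was not tested. Without tail-suspension replicate 1 the value was -0.11. The files give Dusp1's probe on mm9 only as chr17:26642526-26642536, shorter than the probe itself.

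**Figure D3:**
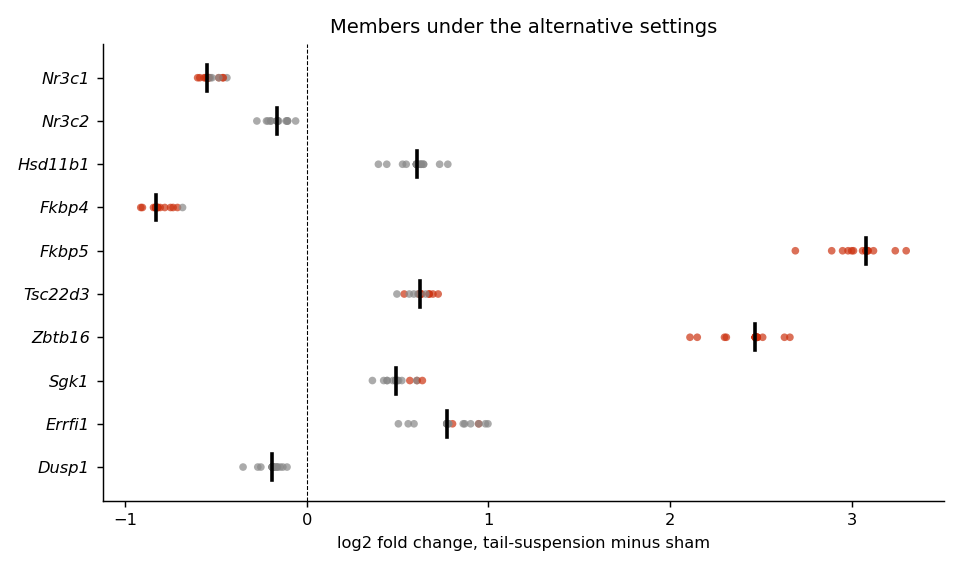
Log2 fold change of each member, tail-suspension minus sham (x axis), as reported (black bar) and under each alternative setting (points), red where the adjusted p was under 0.05 and grey otherwise. No member changed sign. Fkbp5 and Zbtb16 stayed red throughout, while Nr3c1 and Tsc22d3 were red in 15 and 13 of 20 settings, which do not include the 2-fold minimum.

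Promoter sequence was searched for the letters that the receptor binds, in RefSeq windows of 300 bases on GRCm38.p6 (250 before to 50 after a transcript start). Windows were at hand for 8 of the 10 members, 16 in all, and not for Nr3c1 or Zbtb16. The full palindrome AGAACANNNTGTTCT, searched on both strands, occurred in 3 of 32851 windows (0.00913%), and 1 of these was 1 of the 6 windows of Sgk1. There it starts 189 bases before a transcript start, at chr10:21993701-21993715, shown here because it is the only such match among the members, with the palindrome in capitals.
Sgk1: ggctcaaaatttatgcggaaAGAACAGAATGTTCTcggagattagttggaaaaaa
The shorter core GNACANNNTGTNC, which overlaps the palindrome, occurred in 156 windows (0.475%), and among the members only in that Sgk1 window. The half-site TGTTCT occurred in 19.0% of all windows and in 4 of the 16 member windows, 3 of Sgk1 and 1 of Tsc22d3. The windows of Fkbp5, Fkbp4, Hsd11b1, Nr3c2, Dusp1 and Errfi1 held none of these letters, which says nothing of sequence outside them. The match in the Sgk1 window stood beside a log2 fold change of 0.49 that did not pass the test.

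A wider list of 26 genes known to be induced by glucocorticoids in some tissue was read beside the members. All 26 were tested, 16 were higher, 2 were lower and 8 did not pass (limma, adjusted p under 0.05), against 10.3% higher and 11.1% lower over all genes, and the list's median log2 fold change was 1.02. These counts rest on the brightest probe of each gene. Crispld2 and Anxa1 did not pass there, but their other probes gave -0.66 (limma adjusted p = 0.0166) and 0.67 (limma adjusted p = 0.0466). Rgs2 passed at its brightest probe (1.14, limma adjusted p = 0.0496) and not at the other (0.82, limma adjusted p = 0.0754). Zfp36, 1 of the 16, was well above background on 5 arrays, and over only the probes above it on all 6 arrays 15 genes were higher, with a median of 0.95. Mt2, Lcn2, Hif3a and Fam107a were drawn in the study's heat map of these arrays and are no independent evidence. Without them 13 of 22 were higher and 2 lower, with a median of 0.84. The whole list was chosen with earlier results of these data known, so these 22 are not independent evidence either. Without sham replicate 1, without sham replicate 2 or without tail-suspension replicate 3, 10 of the 26 were higher, and with the slide row fitted as a block 4 were.

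The 3 largest rises of the list were in Mt2, Lcn2 and Hif3a. Mt2, a metal-binding metallothionein, had a rise of 4.21 (log2, SE 0.39, limma adjusted p = 0.00251). Lcn2, which encodes the iron-scavenging lipocalin of neutrophils and stressed tissues, rose by 4.05 (SE 0.61, limma adjusted p = 0.00915). Hif3a, an oxygen-regulated transcription factor gene, rose by 3.89 at its brightest probe (SE 0.21, limma adjusted p = 0.00127), while its other probes gave 2.67 and 1.20. The falls were in Lpin1, a phosphatidate phosphatase gene, at -0.65 (SE 0.14, limma adjusted p = 0.0233), and in Bcl6, a transcriptional repressor gene, at -0.65 (SE 0.14, limma adjusted p = 0.0243). The other Lpin1 probe gave -1.22 (limma adjusted p = 0.00992).

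The next genes were named after their values were seen. Cdkn1a, a cell cycle inhibitor, rose by 2.62, Sult1a1, a sulfotransferase, by 2.17, Cebpd, a transcription factor, by 1.85 and Glul, the glutamine synthetase gene, by 1.50. The ubiquitin ligase genes of muscle atrophy, which glucocorticoids induce in skeletal muscle, gave log2 fold changes of -0.07 for Trim63 (limma adjusted p = 0.798) and 0.64 for Fbxo32 (limma adjusted p = 0.0697). Pdk4, a kinase gene of fuel choice, gave 0.03 (limma adjusted p = 0.967). The probes of Fam107a disagreed, at -0.21 for the brightest (limma adjusted p = 0.548) and 4.08 for the other (limma adjusted p = 0.00138).

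**Figure D4:**
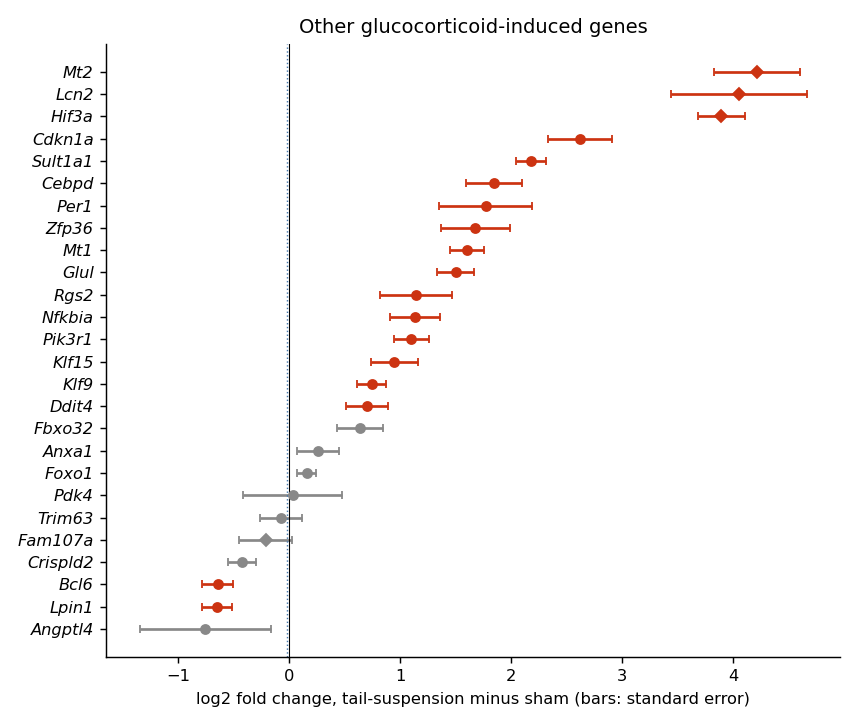
Log2 fold change, tail-suspension minus sham (x axis), of 26 other glucocorticoid-induced genes with bars of 1 standard error, red where the adjusted p was under 0.05 and grey otherwise, with diamonds for the 4 genes drawn in the study's heat map and a dotted line at the median of all tested genes, -0.02. The values ran from -0.76 to 4.21, and 16 genes lay to the right in red.

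The hearts of the suspended group were not alike in this list. Tail-suspension replicate 3 was the highest of the 3 suspended arrays for 12 of the 16 genes that rose and for all 3 members that rose. The same share over all genes called higher was not counted, so this is not shown to be particular to the list. In tail-suspension replicate 2 Lcn2 stood at a log2 level of 2.35, against 4.12 and 4.99 in replicates 1 and 3, and Cebpd at 4.52, against 5.33 and 5.35. Pdk4 went the other way, at 5.89 in replicate 2 against 4.13 and 4.36, as did Fbxo32, at 2.57 against 1.93 and 1.81. These genes were named after their values were seen.

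**Figure D5:**
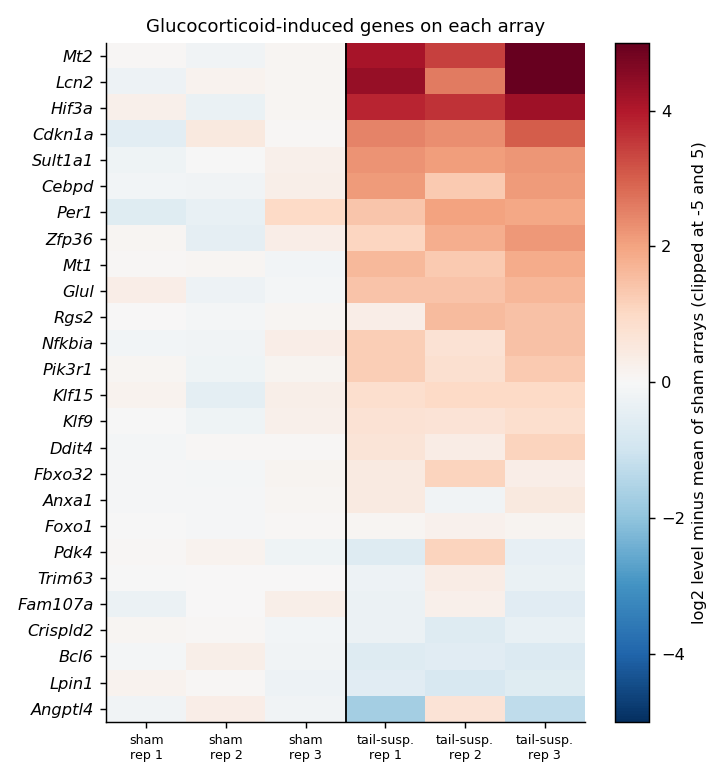
Log2 level of the 26 glucocorticoid-induced genes (rows) on each of the 6 arrays (columns) minus the mean of the sham arrays, coloured from blue (lower) to red (higher) and clipped at -5 and 5. The upper rows were red on all 3 suspended arrays, Lcn2 was paler in replicate 2 than in replicates 1 and 3, and the lowest row, Angptl4, was blue in replicates 1 and 3 and red in replicate 2.

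Promoter windows were at hand for 23 of the 26 genes, 29 windows in all, and 4 of them, in 3 genes, held the core GNACANNNTGTNC (13.8%, against 0.475% of all windows). The matches are shown because they lie in genes of different response, with the core in capitals, on the strand of the gene and on GRCm38.p6.
Mt1: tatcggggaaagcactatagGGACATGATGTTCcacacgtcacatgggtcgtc
Trim63: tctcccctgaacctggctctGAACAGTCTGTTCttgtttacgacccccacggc
Fam107a: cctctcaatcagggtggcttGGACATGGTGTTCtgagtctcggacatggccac
They lie at chr8:94178995-94179007 for Mt1, at chr4:134314912-134314924 for Trim63 and at chr14:8309885-8309897 for Fam107a, where 2 windows overlap. Mt1, a further metallothionein gene, had a rise of 1.60 (log2, SE 0.15, limma adjusted p = 0.00275), while Trim63 gave -0.07.

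Of 17 further genes for chaperones, coregulators, hormone transport and hormone conversion, 15 were tested, 2 were higher, 1 was lower and 12 did not pass (limma), against 21.4% called over all genes. The median log2 fold change was -0.05, and 0.03 with normexp background correction. None of the 3 calls passed without sham replicate 1, without sham replicate 2, without tail-suspension replicate 3 or without the filter on dim probes. H6pd, which supplies the cofactor of the Hsd11b1 enzyme, rose by 0.43 (SE 0.11, limma adjusted p = 0.0340), and Abcb1b, a gene of the drug and steroid efflux pump, by 0.61 (SE 0.14, limma adjusted p = 0.0266). Ppid, which encodes another Hsp90-binding immunophilin, fell by 0.34 at its brightest probe (SE 0.08, limma adjusted p = 0.0347). Its other probes gave -0.34 (limma adjusted p = 0.0429), -0.26 (limma adjusted p = 0.141) and -0.08 (limma adjusted p = 0.666). Hsp90ab1, the constitutive Hsp90 gene, gave -0.03 (limma adjusted p = 0.849). The probes of Ncor1, a coregulator gene counted here as not passing, disagreed. The brightest gave -0.11 (limma adjusted p = 0.524), and the others gave -0.42 (limma adjusted p = 0.0831) and -0.79 (limma adjusted p = 0.00664). Hsd11b2, whose enzyme inactivates glucocorticoid, was well above background on no array, so its level is known only as a bound.

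Of 12 inflammatory genes that glucocorticoids repress, 8 were tested, 1 was higher, 2 were lower and 5 did not pass (limma), against 10.3% higher and 11.1% lower over all genes. The median was 0.16, and it was 0.06 without tail-suspension replicate 1, 0.43 without tail-suspension replicate 3 and 0.47 with the slide row fitted as a block. With 1 array left out, 1 to 2 genes were higher and 1 to 2 lower, with 2 higher without sham replicate 3 or tail-suspension replicate 3 and 1 lower without sham replicate 2. Nos2, the inducible nitric oxide synthase gene, fell by 1.39 (SE 0.16, limma adjusted p = 0.00442), and the chemokine gene Ccl2 by 0.93 (SE 0.17, limma adjusted p = 0.0150). Mmp3, a matrix protease gene, rose by 2.03 (SE 0.23, limma adjusted p = 0.00379). Il6 and Sele were well above background on no array.

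Circadian clock genes were read because hormone release and the receptor's targets follow the time of day, and the hour of sampling is not given in the sources used here. Of 14 clock genes 12 were tested, 3 were higher and 9 did not pass (limma), against 10.3% higher over all genes, and the median was 0.37. Only 1 gene passed without sham replicate 2 or without any 1 of the 3 suspended arrays, and 2 passed without sham replicate 1. Without sham replicate 2 the median was 0.04. Per2 rose by 1.99 (SE 0.34, limma adjusted p = 0.0133), Per1, itself a receptor target on both lists, by 1.77 (SE 0.42, limma adjusted p = 0.0320), and Cry2 by 0.55 (SE 0.14, limma adjusted p = 0.0408). The sham hearts differed among themselves in these genes. Per1 stood at log2 levels of 3.04, 3.27 and 4.63 in sham and 5.02, 5.64 and 5.59 in tail-suspension. Dbp, an output gene of the clock named after its values were seen, stood at 4.32, 3.33 and 6.22 in sham and 5.12, 4.79 and 5.37 in tail-suspension, with overlap. The part of the clock in the members' changes was not tested.

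Cell type markers were read in the same fit, in which 10.3% of all tested genes were higher and 11.1% lower. A single call among the few markers of a type is therefore not read as a change of that cell type. The 6 cardiomyocyte markers were well above background on all arrays. At the brightest probe of each, 1 of them was lower, Actc1 at -0.33 (limma adjusted p = 0.0371), a call that was lost with any 1 array left out. The probes of Myh6 disagreed, at -0.09 for the brightest (limma adjusted p = 0.593) and -1.48 for the other (limma adjusted p = 0.00921). The sum and counts below rest on the brightest probe of each marker. The summed level of the cardiomyocyte markers, the sum over the list of intensity relative to the 75th percentile, was 3410 to 3780 in sham and 3190 to 3270 in tail-suspension. Among 5 neutrophil markers tested of 6, 3 were higher, S100a8 at 4.80, S100a9 at 4.61 and Retnlg, which was well above background on 3 arrays and so was tested through the suspended group alone. Their summed level was 145 to 173 in sham and 208 to 237 in tail-suspension, most of it from Csf3r, which did not pass (0.29, limma adjusted p = 0.0917). Elane went the other way at -0.30, with groups that did not overlap, and did not pass (limma adjusted p = 0.0664). Without Csf3r the sum was 1.60 to 1.99 in sham and 8.71 to 49.8 in tail-suspension. Lcn2 of the induced list is also made by neutrophils. Of 5 endothelial markers 2 were lower, of 6 fibroblast markers 1, of 4 red cell markers 1 and of 3 tested B cell markers 2, and of 5 tested macrophage markers 1 was higher and 1 lower. With 1 array left out, 0 to 2 endothelial, 0 to 2 fibroblast, 0 to 3 red cell and 1 to 2 B cell markers were lower, and 0 to 2 macrophage markers higher. The 5 smooth muscle and pericyte markers and the 2 tested T cell markers did not pass, and none of 5 adipocyte markers could be tested. The summed endothelial level was 38.2 to 41.2 in sham and 28.6 to 31.9 in tail-suspension, and that of red cells 430 to 696 in sham and at most 345 in tail-suspension. The part of cell composition in the members' changes was not tested.

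Genes whose pattern over the 6 arrays was most like a member's, each centred on its own sham mean, were sought for 3 members, with likeness measured as the root mean square difference on the log2 scale. For Nr3c1 they were Lars2 (0.03), Ptcd3 (0.04) and Eml1 (0.04), for Fkbp5 Gnrhr (0.11), Itih3 (0.16) and Apod (0.32), and for Zbtb16 Lrrc52 (0.18), Spock2 (0.23) and 8430426J06Rik (0.25). The log2 fold changes of the genes nearest Fkbp5 were 2.94, 2.93 and 3.40. The shift between the groups is part of this measure, so similar log2 fold changes follow from the way the genes were sought.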

How the data were processed

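The authors scanned 6 one-colour Agilent arrays (1 mouse each, 3 per group) and deposited, per spot, a processed intensity extracted with Agilent Feature Extraction 10.7.1.1. A deposited table holds the authors' log2 values for these arrays, which correlated at 0.9991 to 0.9993 with the log2 processed intensity. Its sorted columns differed by at most 0.098, so the normalization was quantile or close to it.

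Here each spot's log2 processed intensity was set against its own array's 75th percentile (intensity 300 to 318.9 in sham, 337.7 to 375 in tail-suspension). Controls and outlier-flagged spots (146 to 212 per array) were dropped, and replicate spots were averaged. A probe was tested if it exceeded background clearly on all arrays of either group, which held for 28032. The groups were compared with limma 3.58.1 (lmFit, eBayes) in R 4.3.3 without covariates, p adjusted by Benjamini-Hochberg and called under 0.05. The brightest tested probe stood for its gene. All arrays lay on 1 slide in 1 scan, 50.9% to 53.4% of probes were well above background, no spot was saturated, and the number of arrays limits the precision. Array correlations over tested probes were 0.991 to 0.996 within and 0.978 to 0.984 between groups.

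The design text gives 3 separate mice per group. The members, gene lists and tests were chosen with earlier results of these data known. Named genes are the 10 members and, per list, up to 3 largest rises and falls that passed with no overlap, and the 3 genes most like Nr3c1, Fkbp5 and Zbtb16. Other genes were named after their values were seen. Of 14813 gene names, 14198 matched RefSeq of GRCm38.p6, which gave the promoter windows. Alternatives were other background corrections, normalizations, filters, probe rules, tests, array weights, blocks by replicate number or slide row, a 2-fold minimum and each array left out. Counting each probe once in the percentile was an alternative chosen after seeing the data. The limma fit and the t-test were checked on simulated log2 values, and the other steps were not.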

Additional observations from a re-analysis of the deposited data

How the results depend on the processing

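The 2-fold minimum leaves each value unchanged and was counted apart. Fkbp4, Nr3c1 and Tsc22d3, which changed by less than 2-fold, do not pass it. No member changed direction under any of the 20 other alternatives. Fkbp5 and Zbtb16 passed under all of them, Fkbp4 under 19, Nr3c1 under 15, Tsc22d3 under 13, Sgk1 under 3, Errfi1 under 2 and Nr3c2, Hsd11b1 and Dusp1 under none. Members called higher, 3 as reported, were 5 with normexp background correction and 2 to 4 with 1 array left out. Members called lower, 2 as reported, were 1 without the filter on dim probes, 0 with the slide row fitted as a block, 0 with a 2-fold minimum and 1 to 2 with 1 array left out. Over all probes, 2984 higher and 2691 lower became 1038 and 805 without the filter, 1456 and 1203 by the methods' t-test, 326 and 178 with the row as a block and 757 and 464 with a 2-fold minimum. Array weights called 4199 higher and 4085 lower, and leaving out 1 array gave 964 to 2927 higher and 737 to 2552 lower. The 16 induced genes called higher became 9 without the filter, 8 by the methods' t-test, 4 with the row as a block and 10 to 14 with 1 array left out. The 2 called lower became 0 under those settings and under the 2-fold minimum, and 0 to 3 with 1 array left out. The median of the receptor machinery list turned from -0.05 to 0.0256 with normexp, and that of the T cell markers from -0.22 to 0.30 without the filter. The shift between Fkbp5 and Fkbp4 was 3.40 in the authors' log2 values and 3.69 to 4.14 with 1 array left out. Some of these fits held fewer arrays or another number of probes, and otherwise the cause was not tested.

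No pairing of the animals by replicate number was seen (correlation of same-numbered deviations -0.02, -0.02 and 0.05), although 3 arrays per group cannot show that there was none. With the replicate block, calls over all probes were 1725 higher and 1432 lower, the members called higher were 4, with Errfi1 at 0.95 (limma adjusted p = 0.0421), and the shift between Fkbp5 and Fkbp4 was 3.91.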
